A study of Gallus gallus with 6 samples.

Results

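Expression of 15 genes of the extracellular matrix and of cell adhesion was followed in the hen magnum, in a laying and a non-laying group. They were the members of the deposited table of 540 differentially expressed genes whose description named a matrix or adhesion protein (collagen, laminin, fibulin, fibronectin, thrombospondin, matrix, integrin or cadherin, among others) or whose symbol began as that of a collagen, laminin, integrin or ADAMTS gene. The rule left out the matrix metalloproteases, which removed 1 gene, and kept 15 of the 19152 genes counted. That table held the genes that the authors had called with DESeq2 between laying and non-laying hens in the same 6 libraries. Their call needed more than a 3-fold difference and an adjusted p (Benjamini-Hochberg) under 0.05. The difference between the groups was therefore part of the choice, and the values of these 15 genes are given as a description. Where calls of these genes by a test are counted, nothing is read from the counts.

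The magnum is the segment of the hen's oviduct that makes egg white. Its wall holds tubular glands, a surface epithelium, connective tissue and smooth muscle. RNA was sequenced from 3 laying Hy-line hens of 35 weeks, sampled 3 h after ovulation with an egg in the magnum, and from 3 non-laying Hy-line hens aged between 35 and 60 weeks. Each hen gave 1 library. The laying hens were in peak production. Those out of lay had been picked from more than 1 flock and had an atrophied oviduct and no maturing follicles. The labels name no treatment for either group. Laying state, age, flock and atrophy cannot be told apart in this design.

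Matrix proteins are of several kinds. Fibrillar collagens form the fibres of connective tissue, associated collagens sit on those fibres, and collagen IV with laminin makes the sheet-like basement membrane on which epithelium, muscle and vessels rest. Glycoproteins and small proteoglycans link these parts, while cadherins and integrins attach cells to each other and to the matrix. In the oviduct, connective tissue surrounds the tubular glands.

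The libraries held between 24948527 and 25763750 counts in laying hens and between 18840068 and 24917234 in non-laying hens. The 20 most abundant genes of each library took 74.3% to 80.6% of its counts in laying hens, against 12.2% to 56.4% in non-laying hens. A gene's share of all counts therefore depends on how much those genes took. Levels are therefore given as CPM scaled by TMM (counts scaled to a common effective library size, which sets the typical gene equal between hens), with factors of 0.4449 to 0.6216 in laying hens and 1.192 to 2.94 in non-laying hens. Non-laying hen 3 stood apart, with the lowest share taken by its own 20 most abundant genes and the highest factor. On this scale the median log2 fold change of all 12499 genes tested was 0.0035, and on total counts without scaling it was -1.80.

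Of the 15 genes, 13 were lower and 2 were higher in laying hens. The 13 lower genes were COL3A1, COL5A1, COL14A1, COL28A1, COL4A5, COL4A6, LAMA1, FRAS1, FBLN1, MXRA5, THBS2, CDH20 and ITGB3BP, and the 2 higher genes were FNDC10 and COL25A1. All 13 lower genes had every laying hen below every non-laying hen in TMM-scaled CPM, as did 17.6% of all genes tested, and also in CPM of total counts, as did 83.0%. Both higher genes had every laying hen above every non-laying hen in TMM-scaled CPM, as did 15.1% of genes tested. On total counts COL25A1 did so and FNDC10 did not, beside 0.464% of genes tested. COL25A1 was not itself among the genes tested. Its separation rested on 2 counts in laying hen 3 against 1 count in non-laying hen 3, so nothing is read from it. With edgeR's quasi-likelihood test, requiring more than a 3-fold difference and an adjusted p (Benjamini-Hochberg) under 0.05, 12 were called lower and 1 higher, beside 3.70% and 1.28% of all genes tested, and nothing is read from these counts since the same contrast chose the genes. CDH20 was tested and not called, and COL25A1 had too few counts to enter the test, so that 14 of the 15 genes were fitted. The median log2 fold change of the 13 lower genes was -2.13, and they ranged from -3.16 for CDH20 to -1.79 for COL5A1, which had the smallest fold of the genes inside the 3-fold limit of the table. Genes just outside that limit carry no names in the files and were not analysed here. A lower level in a piece of tissue can come from fewer cells of a type or from less RNA per cell, and these cannot be told apart here.

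**Figure D1:**
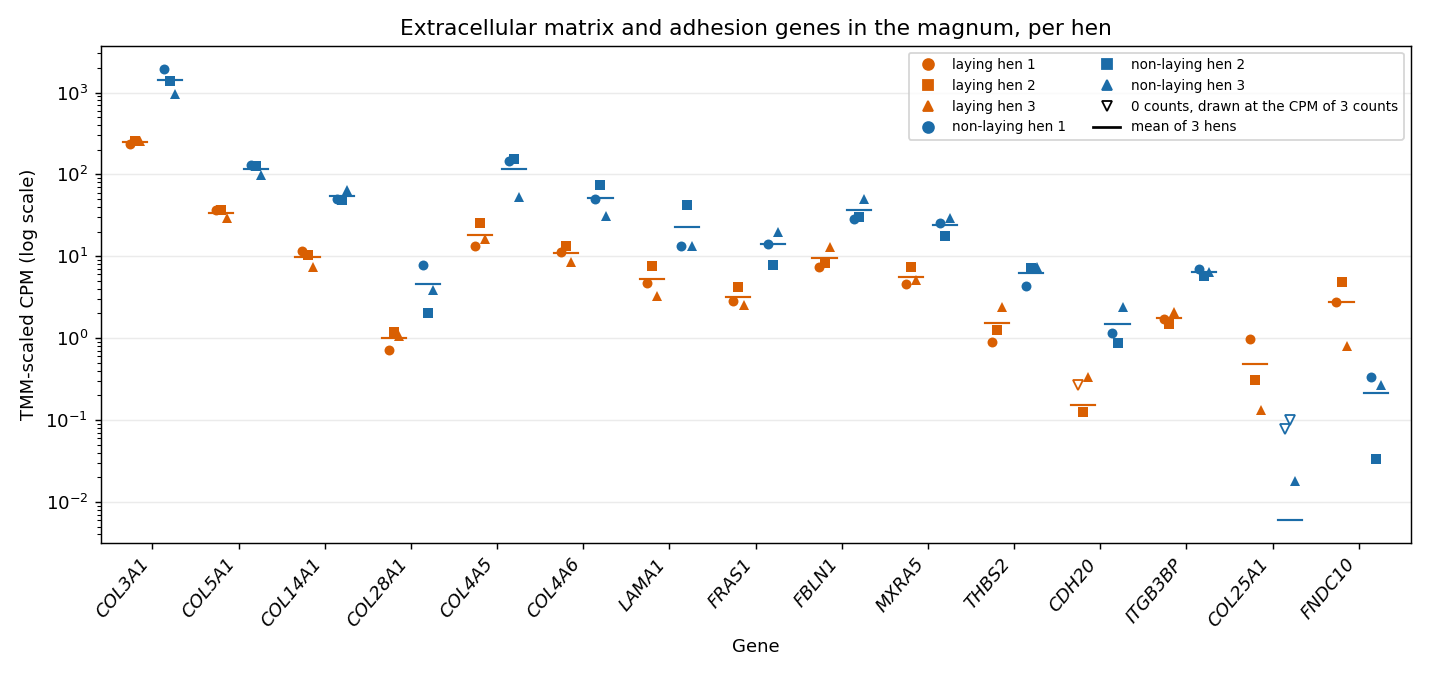
TMM-scaled CPM (log axis) of the 15 matrix and adhesion genes in each hen, with laying hens left of non-laying hens in each pair, lines for means and open triangles for 0 counts, drawn at the CPM of 3 counts. Each of the 13 lower genes has its 3 laying hens below its 3 non-laying hens, and FNDC10 and COL25A1 have theirs above, and COL3A1 lies highest, at 234 to 258 CPM in laying hens and 957 to 1965 CPM in non-laying hens.

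COL3A1 codes for the chain of collagen III, a fibrillar collagen of soft and distensible tissues. It was by far the most abundant of the 15 genes, with 2612, 4129 and 3779 counts in laying hens (hens 1 to 3, in this order throughout), against 76825, 40700 and 52998 counts in non-laying hens. In TMM-scaled CPM it was at 234, 258 and 253 in laying hens, against 1965, 1371 and 957 in non-laying hens. The laying hens lay close together and the non-laying hens spread over a wider range, with no overlap. COL3A1 averaged 248 ± 12.4 CPM in laying hens and 1431 ± 506 CPM in non-laying hens (SD, n = 3 each), a log2 fold change of -2.53 ± 0.39 (SE) or 5.76-fold lower. As a share of all counts it took 0.0104%, 0.0160% and 0.0151% in laying hens, against 0.338%, 0.163% and 0.281% in non-laying hens. The 95% Wilson interval of the lowest of these shares was 0.01% to 0.0108%, and that of the lowest non-laying share was 0.162% to 0.165%. Such an interval covers counting error within a library and not the spread between hens. It may be too narrow even for that error, as PCR copies of a molecule were not marked. The files place COL3A1 (ENSGALG00000035584) at chr7:578995-896831 on Galgal 5.0, with 12660 bases of exons. This gene model spans 317837 bases. In RefSeq, on a later assembly, COL3A1 lies between COL5A2 and GULP1. COL5A2 codes for a chain of collagen V and has no identifier in the files. Whether counts listed as COL3A1 hold reads of neighbouring genes was not tested, and this bears on its level, its rank and its ratios to other genes.

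COL5A1 codes for a chain of collagen V, a minor fibrillar collagen that is built into fibres of other collagens. It had 36.3, 36.5 and 29.1 CPM in laying hens, against 130, 125 and 98 CPM in non-laying hens. On this TMM scale both groups were tight and stood apart. The means were 34.0 ± 4.2 CPM in laying hens and 118 ± 17.2 CPM in non-laying hens (SD, n = 3 each), 3.46-fold lower, with a log2 fold change of -1.79 ± 0.23 (SE), the smallest among the 13 lower genes. On total counts the non-laying hens spread wider, at 223, 149 and 288 CPM. COL5A1 (ENSGALG00000002546) lies at chr17:7910288-8039020.

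Collagens that associate with fibres or form beaded filaments were also lower in laying hens. COL14A1 codes for collagen XIV, a fibril-associated collagen with interrupted triple helices. It had 11.6, 10.5 and 7.49 CPM in laying hens, against 50.1, 48.3 and 64.7 CPM in non-laying hens. It averaged 9.85 ± 2.11 CPM in laying hens and 54.4 ± 9.01 CPM in non-laying hens (SD, n = 3 each), a log2 fold change of -2.47 ± 0.25 (SE) or 5.53-fold lower. On the TMM scale non-laying hen 3 was the highest hen, whereas for COL3A1 it was the lowest non-laying hen. COL14A1 (ENSGALG00000037675) lies at chr2:136894050-137014125.

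COL28A1 codes for a minor collagen with von Willebrand factor A domains, known in mice mainly from peripheral nerve. It had 8, 19 and 16 counts in laying hens, against 302, 61 and 217 counts in non-laying hens. That gave 0.717, 1.19 and 1.07 CPM in laying hens, against 7.72, 2.05 and 3.92 CPM in non-laying hens. The groups did not overlap, but the non-laying hens differed from each other by 3.76 times, the widest spread of the 13 genes on the TMM scale. The log2 fold change was -2.19 ± 0.55 (SE), 4.56-fold lower, and without non-laying hen 1 it was -1.58. COL28A1 (ENSGALG00000010259) lies at chr2:24735576-24796883.

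The basement membrane genes were COL4A5, COL4A6 and LAMA1, with FRAS1 at the border between epithelium and connective tissue. COL4A5 and COL4A6 code for the α5 and α6 chains of collagen IV, which join in a common network. COL4A5 had 13.2, 25.8 and 16.2 CPM in laying hens, against 144, 154 and 53.1 CPM in non-laying hens. COL4A6 had 11.2, 13.4 and 8.62 CPM in laying hens, against 50.5, 73.9 and 30.7 CPM in non-laying hens. For both genes non-laying hen 2 was the highest and non-laying hen 3 the lowest of its group, and even that hen was above every laying hen. COL4A5 averaged 18.4 ± 6.58 CPM in laying hens and 117 ± 55.7 CPM in non-laying hens (SD, n = 3 each), a log2 fold change of -2.67 ± 0.45 (SE) or 6.36-fold lower. COL4A6 averaged 11.1 ± 2.37 CPM in laying hens and 51.7 ± 21.7 CPM in non-laying hens, with a log2 fold change of -2.22 ± 0.35 (SE) or 4.67-fold lower. The spread of COL4A6 between non-laying hens depended on the scale, since on total counts they had 86.9, 88.1 and 90.1 CPM. So did the order of hens, with COL4A5 at 248, 184 and 156 CPM of total counts in non-laying hens.

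Both collagen IV genes lie on chromosome 4, COL4A5 (ENSGALG00000008141) at chr4:13955889-14009116 and COL4A6 (ENSGALG00000008266) at chr4:14111920-14151756, with 102.8 kb between them. They are also neighbours among the protein-coding genes of the RefSeq annotation of a later chicken assembly. In mammals the same pair lies head to head on the X chromosome.

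LAMA1 codes for the laminin α1 chain, which in mammals is found mostly in embryonic and some epithelial basement membranes. It had 4.75, 7.68 and 3.27 CPM in laying hens, against 13.2, 41.8 and 13.3 CPM in non-laying hens. As with collagen IV, non-laying hen 2 was the highest on the TMM scale, here above the other 2 combined. On total counts the non-laying hens had 22.8, 49.8 and 39 CPM of LAMA1, with a smaller lead of hen 2. LAMA1 averaged 5.24 ± 2.24 CPM in laying hens and 22.8 ± 16.5 CPM in non-laying hens (SD, n = 3 each), a log2 fold change of -2.11 ± 0.53 (SE) or 4.32-fold lower. Without non-laying hen 2 the log2 fold change was -1.32, the smallest value of any lower gene with 1 hen left out. LAMA1 (ENSGALG00000014615) lies at chr2:99747385-99848774.

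FRAS1 codes for a large protein that anchors epithelial basement membranes to the tissue beneath. It had 2.87, 4.18 and 2.54 CPM in laying hens, against 14.2, 7.88 and 19.9 CPM in non-laying hens. On the TMM scale its order among the non-laying hens was the reverse of that of the collagen IV genes, with hen 3 highest and hen 2 lowest. The log2 fold change was -2.13 ± 0.39 (SE), 4.37-fold lower. FRAS1 (ENSGALG00000010316) lies at chr4:35018318-35181390.

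Matrix glycoproteins formed the next group. FBLN1 codes for fibulin 1, a calcium-binding glycoprotein of elastic fibres and basement membranes. It had 7.44, 8.18 and 12.9 CPM in laying hens, against 28.9, 29.8 and 50.5 CPM in non-laying hens. Its log2 fold change was -1.93 ± 0.32 (SE), 3.82-fold lower, and hen 3 was the highest hen in both groups. FBLN1 (ENSGALG00000014233) lies at chr1:70545573-70627591.

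MXRA5 codes for a secreted matrix-remodelling associated protein with leucine-rich repeats and immunoglobulin domains. It had 4.57, 7.31 and 5.08 CPM in laying hens, against 25.4, 17.8 and 29.0 CPM in non-laying hens, with a log2 fold change of -2.08 ± 0.29 (SE) or 4.24-fold lower. THBS2 codes for thrombospondin 2, which binds matrix and cell surface proteins and restrains vessel growth in mice. It had 10, 20 and 36 counts in laying hens, against 171, 211 and 406 counts in non-laying hens. These were 0.896, 1.25 and 2.41 CPM in laying hens, against 4.37, 7.11 and 7.33 CPM in non-laying hens, with a log2 fold change of -2.03 ± 0.45 (SE) or 4.09-fold lower. FBLN1, MXRA5 and THBS2 had no overlap between groups, and all 3 were highest in non-laying hen 3. MXRA5 (ENSGALG00000016635) lies at chr1:128366355-128384828 and THBS2 (ENSGALG00000011200) at chr3:41483185-41514674.

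Of the adhesion genes, CDH20 codes for a type II cadherin, a calcium-dependent adhesion protein between cells. It had 0, 2 and 5 counts in laying hens, against 45, 26 and 133 counts in non-laying hens. The counts added up to 7 over the laying hens and 204 over the non-laying hens. In CPM it was at 0, 0.125 and 0.334 in laying hens, against 1.15, 0.876 and 2.40 in non-laying hens. The fitted log2 fold change of -3.16 ± 0.82 (SE), 8.95-fold lower, was the largest of the 13 genes and also had the largest error among them. It rested on few counts and was -4.29 without laying hen 3, which carried 5 of the 7 counts. CDH20 (ENSGALG00000012906) lies at chr2:68849329-68961557.

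ITGB3BP entered by the word integrin in its description and by its symbol. Its product was first found as a partner of the integrin β3 tail, but it is known mainly as a protein of the centromere and as a nuclear receptor coregulator, not as a part of the matrix. It had 1.7, 1.5 and 2.07 CPM in laying hens, against 7.06, 5.69 and 6.37 CPM in non-laying hens, with a log2 fold change of -1.86 ± 0.32 (SE) or 3.62-fold lower. On the TMM scale its non-laying hens differed by 1.24 times, the narrowest spread of the 13 genes on that scale. On total counts they had 12.1, 6.78 and 18.7 CPM. ITGB3BP (ENSGALG00000010995) lies at chr8:27910149-27935026. No integrin subunit was among the 15 genes.

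**Figure D2:**
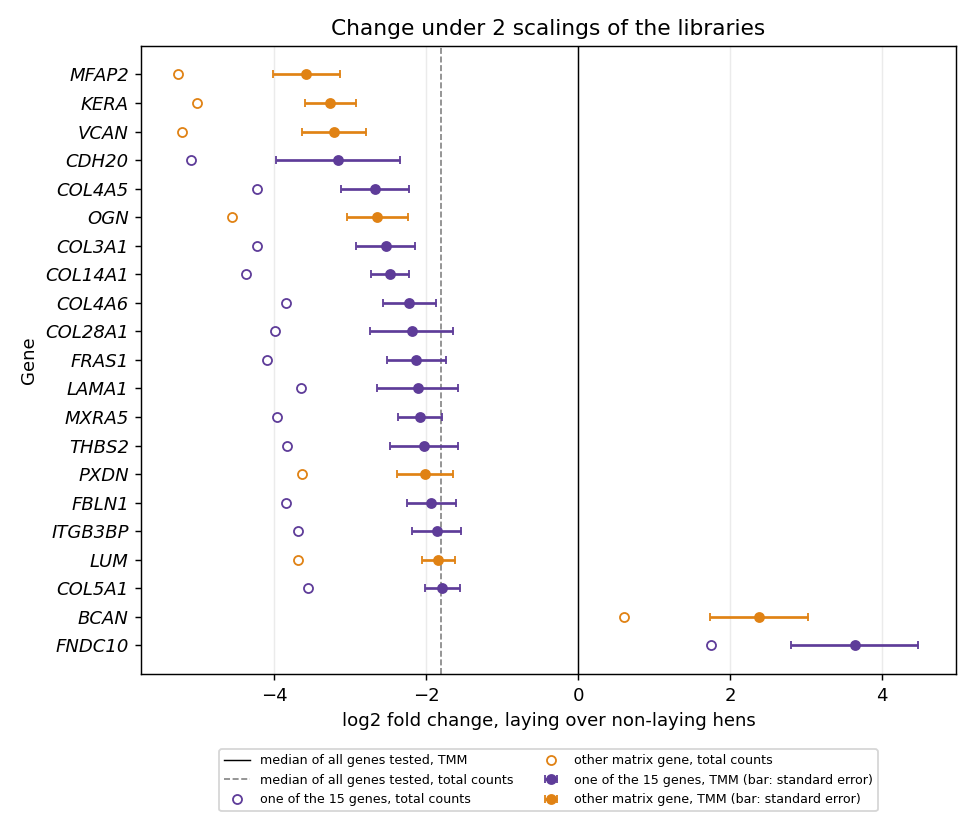
Log2 fold change, laying over non-laying hens, of the fitted matrix and adhesion genes and of the other matrix genes named in the deposited table, with filled points for TMM (bars are SE), open points for total counts, and lines at the median of all genes. On the TMM scale all 13 lower genes lie between -3.16 and -1.79, while FNDC10 lies at 3.64 and BCAN at 2.38.

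Both genes that were higher in laying hens code for membrane proteins and had few counts. FNDC10 codes for a small membrane protein with a fibronectin type III domain. It had 31, 77 and 12 counts in laying hens, against 13, 1 and 15 counts in non-laying hens. After TMM scaling these were 2.78, 4.81 and 0.802 CPM in laying hens, against 0.332, 0.0337 and 0.271 CPM in non-laying hens, with a log2 fold change of 3.64 ± 0.84 (SE) or 12.5-fold higher. On total counts the groups overlapped, with 1.24, 2.99 and 0.481 CPM in laying hens, against 0.572, 0.0401 and 0.796 CPM in non-laying hens, and the log2 fold change was 1.75. Without laying hen 2 it was 3.0 on the TMM scale. FNDC10 (ENSGALG00000037713) lies at chr21:2107952-2108599, with 648 bases of exons.

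COL25A1 codes for a transmembrane collagen, known in mammals from neurons and from the innervation of muscle. It had 11, 5 and 2 counts in laying hens, against 0, 0 and 1 count in non-laying hens. In TMM-scaled CPM it averaged 0.477 in laying hens. No non-laying library had more than 3 counts, which give 0.0773 CPM on average over the non-laying hens. The laying mean was 6.18 times that level on the TMM scale, and 2.88 times without laying hen 1. This ratio is no lower bound, since non-laying hen 3 had 1 count and the error of the laying counts was left out. On total counts the gene had 0.439, 0.194 and 0.0802 CPM in laying hens, against 0, 0 and 0.0531 CPM in non-laying hens, and no such ratio was worked out. One laying hen also had fewer than 3 counts, and the gene was too low for the fit. COL25A1 (ENSGALG00000039411) lies at chr4:37840437-37922607.

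Levels of different genes were compared in RPKM, which divides by gene length. In non-laying hens COL3A1 averaged 641 ± 260 RPKM (SD, n = 3), above every value of COL4A5, the next gene, at 39.2 ± 9.43 RPKM. COL4A5, COL5A1 at 26.7, FBLN1 at 24.0, COL14A1 at 18.2 and COL4A6 at 17.9 RPKM followed, and each overlapped its neighbour in this order. COL4A6 stood apart from ITGB3BP at 6.88 RPKM, after which MXRA5, LAMA1, THBS2, FRAS1, COL28A1, CDH20 and FNDC10 descended to 0.724 RPKM with overlaps, and COL25A1 was lowest at 0.0124 RPKM.

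In laying hens COL3A1 again led, at 35.6 ± 6.27 RPKM (SD, n = 3), and stood apart from FNDC10 at 2.42 RPKM. No other pair of neighbours in that order was apart, and COL5A1 at 2.28, COL4A5 at 2.11, FBLN1 at 1.67 and COL4A6 at 1.25 RPKM came next among the named genes. The length behind RPKM was not the same in every hen for some genes. Counts and RPKM values of COL3A1 imply between 3.65 and 4.61 kb depending on the hen, whereas its exons in the files add up to 12660 bases. They imply 4.72 to 6.41 kb for COL14A1, with 7784 bases of exons, and 1.66 to 2 kb for ITGB3BP, with 3372 bases. The ranks of these genes in RPKM carry that limit. Per kilobase of those exons COL3A1 averaged 11 ± 2.38 CPM of total counts in laying hens and 206 ± 70.4 in non-laying hens.

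The hen with the highest level differed between genes. In TMM-scaled CPM, non-laying hen 1 was highest for 4 of the 13 genes (COL3A1, COL5A1, COL28A1 and ITGB3BP), hen 2 for 3 (COL4A5, COL4A6 and LAMA1) and hen 3 for 6 (COL14A1, FRAS1, FBLN1, MXRA5, THBS2 and CDH20). The 3 genes highest in hen 2 were the collagen IV and laminin chains, on this scale only. On total counts LAMA1 was still highest in hen 2, but COL4A5 was highest in hen 1 and COL4A6 in hen 3. On total counts hen 3 was highest for 9 of the 13 genes and hen 2 lowest for 9, so the order of hens depended on the scaling, in which hen 3 had the largest factor.

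**Figure D3:**
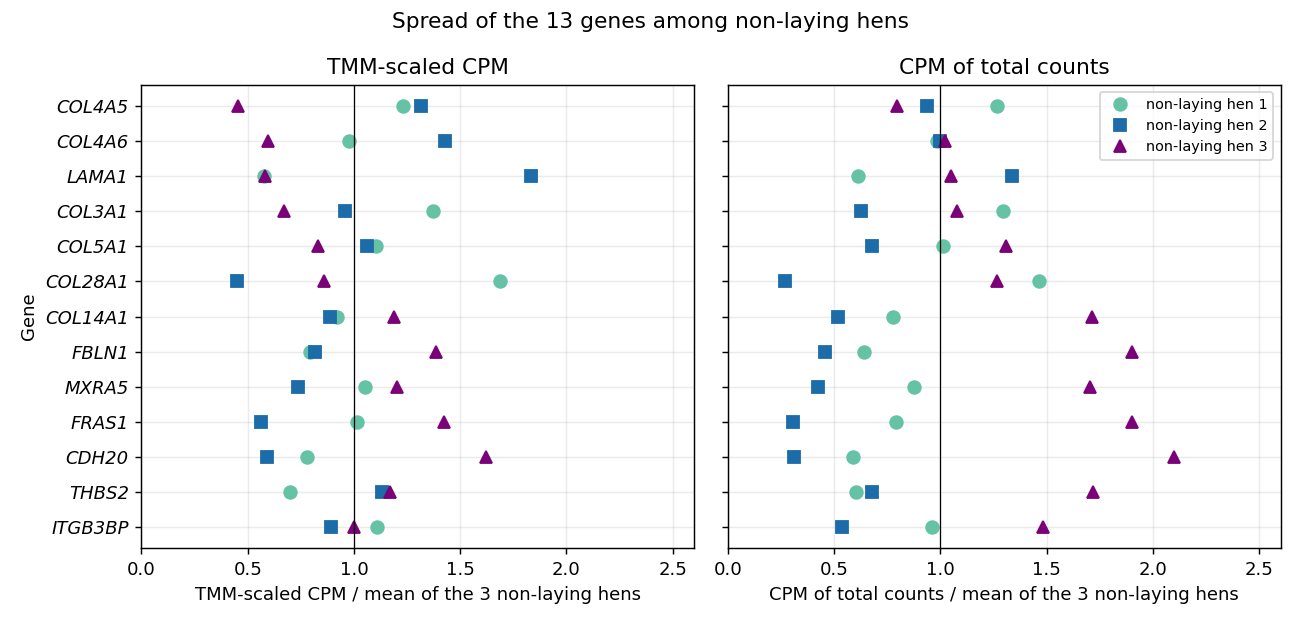
Level of each of the 13 lower genes in the 3 non-laying hens, relative to the mean of these hens, in TMM-scaled CPM (left) and CPM of total counts (right). On the left COL4A5, COL4A6 and LAMA1 peak in hen 2, 6 genes peak in hen 3, and the ratio of the highest to the lowest hen runs from 1.24 for ITGB3BP to 3.76 for COL28A1.

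Ratios of 2 genes within a library do not depend on how libraries are scaled. COL3A1 had 6.45, 7.06 and 8.67 counts per count of COL5A1 in laying hens, against 15.2, 10.9 and 9.77 in non-laying hens. COL14A1 had 31.9, 28.7 and 25.7 counts per 100 counts of COL5A1 in laying hens, against 38.7, 38.5 and 66.1 in non-laying hens. Both ratios were lower in every laying hen than in any non-laying hen. COL5A1 had the smallest fold of the 13 genes, so that ratios to it lean towards lower values in laying hens. Even so, COL4A5 overlapped, with 0.363, 0.706 and 0.557 counts per count of COL5A1 in laying hens, against 1.11, 1.23 and 0.542 in non-laying hens. COL4A6 overlapped too, with 0.309, 0.366 and 0.296 in laying hens, against 0.39, 0.59 and 0.313 in non-laying hens. So did FBLN1, with 20.5, 22.4 and 44.3 per 100 counts in laying hens, against 22.3, 23.8 and 51.5. How often such ratios separate the groups for other genes was not worked out.

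Other ratios overlapped between the groups. COL4A5 had 1.18, 1.93 and 1.88 counts per count of COL4A6 in laying hens, against 2.86, 2.09 and 1.73 in non-laying hens. COL4A6 had 1.51, 1.63 and 0.668 counts per count of FBLN1 in laying hens, against 1.75, 2.48 and 0.608 in non-laying hens, so that hen 3 of each group had the least collagen IV relative to fibulin. LAMA1 had 42.4, 57.5 and 38.0 counts per 100 counts of COL4A6 in laying hens, against 26.2, 56.5 and 43.2 in non-laying hens. COL3A1 made up 71.1%, 68.7% and 73.5% of the counts of the 13 genes in laying hens, against 80.5%, 72.7% and 71.6% of them in non-laying hens, again with overlap.

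**Figure D4:**
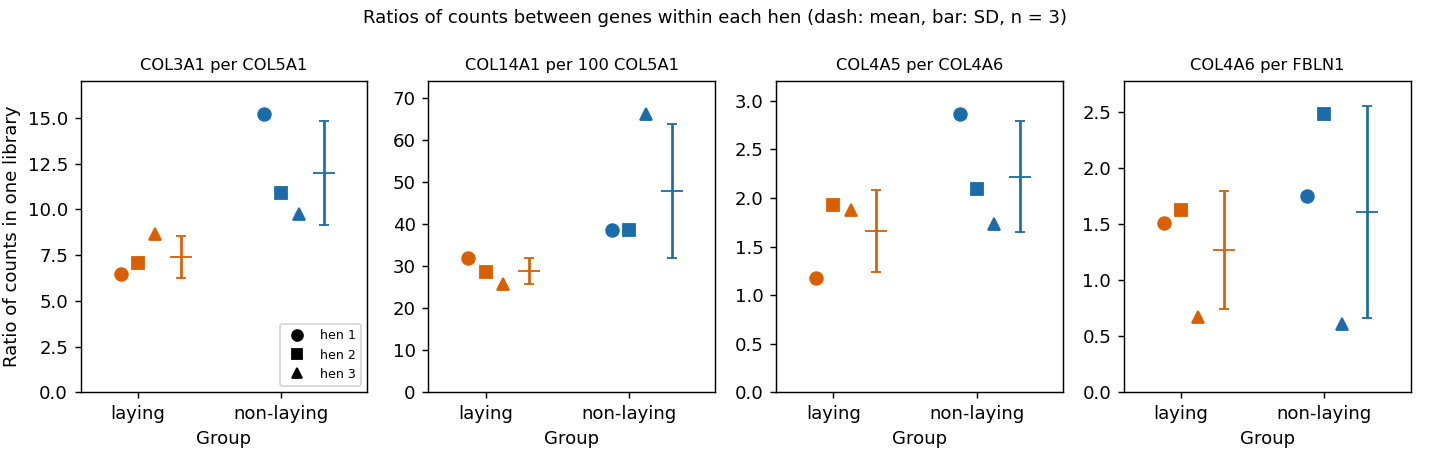
Ratios of counts between matrix genes within each hen, for laying hens left of non-laying hens, with the mean and SD (n = 3). COL3A1 and COL14A1 relative to COL5A1 have every laying hen below every non-laying hen, while COL4A5 relative to COL4A6 and COL4A6 relative to FBLN1 overlap.

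Summed, the 13 genes took 0.0147%, 0.0233% and 0.0206% of all counts in laying hens, against 0.420%, 0.225% and 0.393% in non-laying hens. The mean share was 17.7 times as high in non-laying hens. Next, the same 20 genes, those of highest mean share over all hens, were left out of every total. The share of the 13 genes was then 0.0740%, 0.0895% and 0.0836% in laying hens, against 0.678%, 0.511% and 0.436% in non-laying hens. It was 6.57 times as high in non-laying hens. In TMM-scaled CPM the 13 genes added up to 329, 375 and 344 in laying hens, against 2441, 1885 and 1336 in non-laying hens.

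A wider list of 247 matrix and adhesion symbols was compared with the files, which name a gene only where it is in the deposited table of differentially expressed genes. Only 20 of the 247 symbols had an identifier there, and 13 of these were among the 15 genes. The other 227 symbols were not analysed here. The other 7 genes were chosen by the same contrast, and 6 of them were lower in laying hens, all 6 called, and 1 was higher and not called. Of the 19 listed genes that were tested, 17 were called lower and 0 higher, beside 3.70% and 1.28% of all genes tested, and nothing is read from this since the same contrast chose them. Without laying hen 1 the number called was 1, beside 0.153% of all genes tested. Without laying hen 2 it was 0, beside 0.123%. None of the 24 symbols listed under collagen synthesis and cross-linking, of the 38 under matrix degradation (metalloproteases MMP1, MMP9 and MMP10 left aside) and of the 25 integrins had an identifier.

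The 6 lower genes were small proteoglycans, a large proteoglycan and parts of elastic fibres and basement membranes. LUM codes for lumican, a small leucine-rich proteoglycan that spaces collagen fibrils. It had 19.6, 21.7 and 18.3 CPM in laying hens, against 81.1, 56.8 and 75.0 CPM in non-laying hens, with a log2 fold change of -1.84 ± 0.22 (SE). KERA, coding for keratocan of the same family, lies 7470 bases from LUM on chromosome 1 and had 0.717, 0.687 and 0.802 CPM in laying hens, against 8.16, 7.17 and 5.98 CPM in non-laying hens, with a log2 fold change of -3.26 ± 0.34 (SE). OGN, coding for osteoglycin of the same family, had a log2 fold change of -2.64 ± 0.40 (SE).

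VCAN codes for versican, a large proteoglycan of loose connective tissue, and had 2.42, 3.56 and 2.87 CPM in laying hens, against 25.0, 14.4 and 43.1 CPM in non-laying hens, 9.27-fold lower. MFAP2 codes for a microfibril protein and had 4, 8 and 5 counts in laying hens, against 216, 164 and 192 counts in non-laying hens, 11.9-fold lower. PXDN codes for peroxidasin, the enzyme that cross-links collagen IV. It had 2.15, 3.31 and 3.21 CPM in laying hens, against 9.62, 17.2 and 8.34 CPM in non-laying hens. On this TMM scale it was highest in non-laying hen 2, like the collagen IV genes. On total counts it was highest in non-laying hen 3, with 16.5, 20.5 and 24.5 CPM in non-laying hens. BCAN codes for brevican, a proteoglycan known from brain, and had 3.05, 9.30 and 1.80 CPM in laying hens, against 0.588, 1.04 and 1.08 CPM in non-laying hens. Its log2 fold change was 2.38 ± 0.64 (SE) on the TMM scale and 1.42 without laying hen 2, and the groups overlapped on total counts.

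The 15 genes were all annotated as protein-coding and were spread over the genome, with 4 on chromosome 2, 4 on chromosome 4, 2 on chromosome 1 and 1 each on chromosomes 3, 7, 8, 17 and 21. Every one of them had whole counts in all 6 hens, to within 0.01 of a count, whereas 5.32% to 7.67% of all values per library were not whole.

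Few markers of cell types carried a name in the files. LUM was the sole 1 of 7 fibroblast markers with an identifier, and none of 9 smooth muscle, 8 endothelial or 8 epithelial markers had any. Of 9 tubular gland markers, 2 could be read. AVD, coding for avidin of egg white, had 2000, 1610 and 838 CPM in laying hens, against 2.38, 2.26 and 3.03 CPM in non-laying hens. ORM1 had 25711, 17061 and 8257 CPM in laying hens, against 1494, 5193 and 765 CPM in non-laying hens. On total counts the groups overlapped for ORM1, with 6189 CPM in non-laying hen 2 and 4952 CPM in laying hen 3. PTPRC, the only 1 of 10 leukocyte markers with an identifier, had 3.68, 5.12 and 5.75 CPM in laying hens, against 12.1, 14.1 and 34.1 CPM in non-laying hens, and CCDC39, the only 1 of 7 ciliated cell markers, had 2.96, 5.93 and 9.69 CPM in laying hens, against 18.1, 22.1 and 33.0 CPM in non-laying hens. All of these markers carried a name only because the same contrast had called them differentially expressed. Nothing is therefore read from their direction, and most markers of each cell type could not be read. Their part in the levels of the matrix genes was not tested.

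The directions of the 13 lower genes held in all 15 alternative analyses, which the choice of the genes fixes in part. Without non-laying hen 3, the hen that stood apart, their log2 fold changes ranged from -3.01 to -1.61, with a median of -2.28. With any 1 hen left out, they ranged from -4.29 to -1.32, and their median from -2.37 to -2.04. On total counts, where all genes tested had a median of -1.80, their log2 fold changes, relative to the median of all genes, ranged from -3.30 to -1.75. The number of the 15 genes called was 13 with all hens, 1 without laying hen 1, 0 without laying hen 2 and 7 without non-laying hen 1, while 20, 16 and 285 of all genes were called with those hens left out (0.153%, 0.123% and 2.25%). Without laying hen 2, edgeR gave 14 of the 15 genes an unadjusted p under 0.05, beside 19.2% of all genes tested, and with all hens DESeq2 called all 15, beside 6.16%. These counts are no support for the genes, which the same contrast chose.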

How the data were processed

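RNA from the magnum of 3 laying and 3 non-laying hens was sequenced with a stranded mRNA kit. Reads were cleaned by the authors (Prinseq) and aligned in Array Studio to the chicken build Galgal 5.0, with genes taken from Ensembl release 94. Per the deposited files, the estimated counts (expected counts) were not normalized, and 5.32% to 7.67% of a library's values were more than 0.01 from a whole number. RPKM values were computed by the authors per kilobase and relative to the library's depth. Gene positions, descriptions and exon lengths are those deposited. The signed fold changes, p-values and group means of the deposited table of 540 genes served only to define it, and their values were not used.

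Counts were rounded to whole numbers, filtered with filterByExpr (12499 of 19152 genes left) and scaled by TMM. The groups were the only term of a two-sided quasi-likelihood test in edgeR 4.0.16 (R 4.3.3). A call needed more than a 3-fold difference and an adjusted p (Benjamini-Hochberg) under 0.05. SE values of log2 fold changes were derived from the F statistic. A library with 3 counts of a gene has 0.0542 to 0.269 CPM, which was taken as the limit that 0 counts allow. The same level was used for COL25A1 in non-laying hen 3, which had 1 count. The fit was also run on counts simulated from the fitted model itself, which cannot test whether that model holds for these hens. DESeq2 1.42.0 and limma 3.58.1 on log2(RPKM + 1) and log2(RPKM + 0.1) were alternatives, beside other scalings, filters, a replicate block and leaving out each hen.

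All 15 genes of the rule and the genes of the wider matrix list with a name in the files were named. The members and lists were chosen with earlier results of these data known. Names came from the deposited table and, where it had none, from the study's supplementary list, which alone names COL25A1. RefSeq names of a later assembly were used only for gene neighbours. Same-numbered hens were not paired by the labels.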

Additional observations from a re-analysis of the deposited data

How the results depend on the processing

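With the main settings 623 of 12499 genes were called, 160 higher and 463 lower in laying hens. On total counts without scaling 7896 were called, 47 higher and 7849 lower, since the median gene then moved to -1.80. DESeq2 called 1009, limma 3626 on log2(RPKM + 1) and 7033 on log2(RPKM + 0.1), and without a threshold on the fold change 939 were called. With the replicate number as a block 397 genes were called, and 10 of the 15 matrix and adhesion genes instead of 13. The correlations of same-numbered hens were 0.255, -0.07 and 0.064, and those of other pairs ran from -0.209 to 0.125. With 3 hens per group these values cannot settle whether the numbers pair the hens. With 1 hen left out, the genes called ranged from 16 to 639, with 20 without laying hen 1, 16 without laying hen 2 and 285 without non-laying hen 1. Of the wider matrix list 17 genes were called, and from 0 to 15 with 1 hen left out, with 1 without laying hen 1 and 0 without laying hen 2, where edgeR gave 19 an unadjusted p under 0.05 (19.2% of all genes tested) and where DESeq2 with all hens called 20 (6.16% of all genes). These genes were chosen by the same contrast. The summed share of the 13 lower genes was 17.7 times as high in non-laying hens, and 15.7 to 20.8 times with 1 hen left out. Without the 20 genes of highest mean share over all hens it was 6.57 times as high. Of 210 alternative values of the fitted genes, 172 moved by less than the SD between hens of a group, 38 moved by more and 0 reversed. The cause of these changes was not tested. With 0 to 5 counts of CDH20 per laying hen and 0 to 1 of COL25A1 per non-laying hen, the comparison of both genes rested on few counts.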
